A study of Homo sapiens with 4 samples.

Results

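In CaSki cells kept at 42 °C for 60 min, 1082 genes had at least 1 listed peak of N6-methyladenosine (m6A) and had no listed peak in control cells grown at 37 °C. These heat-only genes carried 1459 of the 15472 peaks of the heat list, and they made up 1082 of the 8220 genes with a peak in either list (13.2%). They were chosen from the peak lists themselves, as the genes whose symbol had a row in the heat list and none in the control list. Their presence in one list and absence from the other is therefore the choice and not a result, and nothing is read from it. A further 1108 genes were listed in control cells only (13.5%), and 6030 genes had rows in both lists, with 14013 peaks in the heat list.

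CaSki is an established epithelial line from a cervical carcinoma. The study held 4 libraries, 1 immunoprecipitated with a commercial m6A kit and 1 input without antibody from the heated cells, and the same pair from control cells. With 1 immunoprecipitated library per condition, a difference between the conditions has no replicate check and was not tested. The 95% exact (Clopper-Pearson) intervals given here cover the counting of genes or peaks alone, and genes are not replicates. The RNA level of each gene was not analysed here, so more RNA of a gene and more m6A per RNA molecule cannot be told apart. Read depth was not given in the lists. Of 22 marker genes of squamous or cervical epithelium, 16 had a peak, of which 6 were heat only, 10 were in both lists and 0 were control only. Of 10 fibroblast and endothelial markers 2 had a peak, namely COL1A1 in both and CDH5 in the control list alone, and of 8 leukocyte markers 0 did.

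The m6A mark is written on adenosines of mRNA by the METTL3 and METTL14 complex, is removed by FTO and ALKBH5, and is bound by YTH-domain proteins that bear on splicing, translation and decay. In human mRNA it is known to lie often in long internal exons and around stop codons. In MeRIP-seq, RNA fragments are pulled down with an antibody, and a peak is a stretch where they pile up above the background, so that single bases are not resolved. Heat shock activates the transcription factor HSF1, which binds heat shock elements in the promoters of chaperone genes, while translation of most other mRNAs slows.

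Because the heated cells were exposed to the stimulus that HSF1 responds to, the promoters of the heat-only genes were searched for its element, on both strands, in the window of 250 bases before to 50 bases after each gene start (RefSeq, GRCh38.p14). The motif was GAA, NN, TTC, NN and GAA in a row, or its reverse complement TTC, NN, GAA, NN and TTC, in which N is any base. A promoter was found for 847 of the 1082 heat-only genes (78.3%), below the 80% set for a comparison of classes, so a comparison of shares is void and the counts are a description. The element stood in 6 of these 847 genes (0.708%), in 21 of 4894 genes in both lists, in 3 of 877 control-only genes and in 166 of all 27305 genes in the table (0.608%). The 6 genes were HSPA6, an inducible HSP70 chaperone, HSP90AA1, the inducible cytosolic HSP90, IL18BP, a secreted inhibitor of interleukin 18, APTX, a DNA end-processing enzyme, TMX2, a thioredoxin-related membrane protein, and DTNB, a dystrobrevin. The 250 bases before the start of HSPA6 (chr1:161524290-161524539, plus strand) are shown as the context of an element in a textbook heat shock gene, followed by short stretches around the elements of the other genes. Capitals mark the element in each, read 5′ to 3′ on the strand of the gene.
HSPA6: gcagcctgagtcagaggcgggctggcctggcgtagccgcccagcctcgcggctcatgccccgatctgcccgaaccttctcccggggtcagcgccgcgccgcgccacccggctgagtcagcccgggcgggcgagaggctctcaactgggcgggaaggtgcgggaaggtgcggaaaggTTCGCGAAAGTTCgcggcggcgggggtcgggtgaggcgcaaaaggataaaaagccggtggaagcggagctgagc
HSP90AA1: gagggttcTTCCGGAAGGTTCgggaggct
IL18BP: cctagaggGAAGCTTCTGGAAaggaaggc
APTX: accgagcgTTCTGGAAAGTTCcgcccggc
TMX2: GAACGTTCAGGAAgtgctatt
DTNB: gacttcacTTCATGAAACTTCcatgttag

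The HSP90AA1 stretch lies at chr14:102087112-102087140 on the minus strand, IL18BP's at chr11:71998967-71998995 on the plus strand, and DTNB's at chr2:25650259-25650287 on the minus strand. The APTX stretch (chr9:33025268-33025296, minus strand) is shared with DNAJA1, a co-chaperone gene that runs the other way and was listed in control only. The element of TMX2 (chr11:57712343-57712363, plus strand) stood at the outer end of its window, 250 bases before the start, and is shared with MED19, a Mediator subunit gene on the other strand that was in both lists. The heat peak of HSPA6 (chr1:161494036-161496687, build hg19) was 2652 bases long, with 49.3-fold enrichment. That of HSP90AA1 (chr14:102605587-102606086, build hg19) was 500 bases long with 73.9-fold enrichment. The elements are placed in another build, GRCh38.p14, so their distance to a peak cannot be read from these positions. Whether a peak lies on the transcript that starts at the searched promoter was not tested. Fold enrichment here is the authors' ratio of immunoprecipitated signal to the background estimated by the peak caller.

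Most heat-only genes had a single peak. Of the 1082 genes, 836 had 1 heat peak (77.3%, 95% interval 74.6% to 79.7%), 178 had 2, 37 had 3 and 31 had 4 or more. Among genes in both lists, 2761 of 6030 had 1 heat peak (45.8%, 44.5% to 47.1%), and among control-only genes 947 of 1108 had 1 control peak (85.5%, 83.3% to 87.5%). At least 3 peaks were listed for 68 heat-only genes (6.28%), against 1774 genes in both lists (29.4%) and 23 control-only genes (2.08%). The mean was 1.35 peaks per heat-only gene, against 2.32 heat peaks per gene in both lists and 1.17 control peaks per control-only gene. The heat-only genes thus stood between the other classes in peak number, nearer to the control-only genes. They were also shorter than the genes in both lists: the median RefSeq gene length was 24880.5 bases (quartiles 11173.2 and 55907.8) over the 1050 heat-only genes that matched the annotation, against 33888 bases for genes in both lists and 29565 bases for control-only genes.

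**Figure D1:**
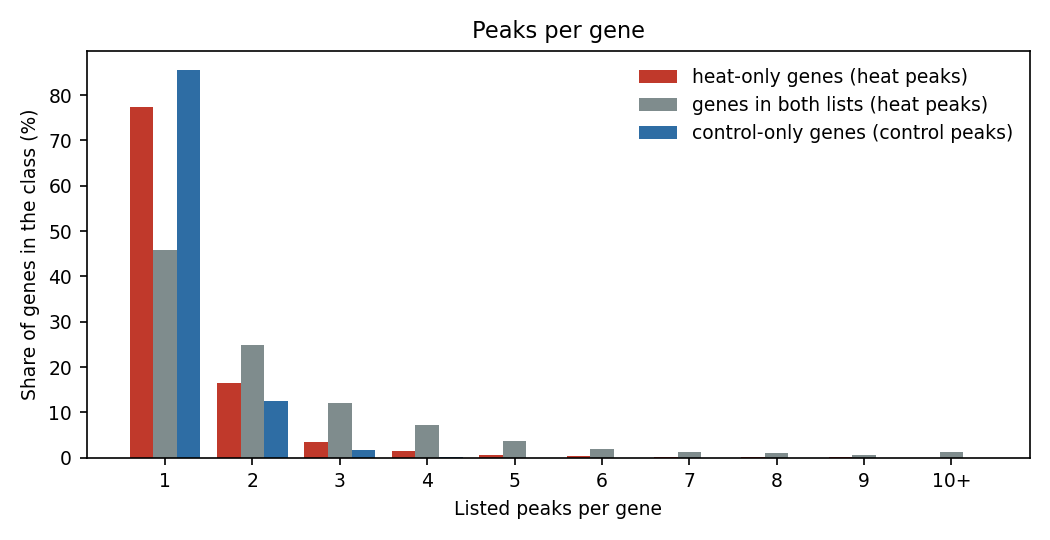
Share of genes (percent, vertical axis) by number of listed peaks per gene (horizontal axis) in heat-only genes, genes in both lists by their heat peaks, and control-only genes. A single peak was listed for 77.3% of heat-only genes, against 45.8% of genes in both lists and 85.5% of control-only genes.

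The peaks of heat-only genes were short. Their median length was 340 bases (order-statistic 95% interval 321 to 371, quartiles 171 and 696.5, range 15 to 4953), against 431 bases for the heat peaks of genes in both lists (414 to 446, quartiles 172 and 1022) and 656 bases for the peaks of control-only genes (618 to 691, quartiles 369 and 1101). The share of peaks under 200 bases was 30.8% both in heat-only genes (450 peaks) and in genes with rows in both lists (4319 peaks), against 12.4% in control-only genes (160 peaks). At the long end, 203 peaks of heat-only genes reached 1000 bases (13.9%), against 3587 heat peaks of genes in both lists (25.6%) and 375 peaks of control-only genes (29.0%). The control peaks of the genes in both lists had a median of 522 bases, and 26.8% of them were under 200 bases. Peaks of the same genes were thus longer in the control list. The part of this difference in the gap between heat-only and control-only genes was not tested. Over all heat peaks, the heat-only genes and the genes in both lists had equal shares of short peaks and unequal shares of long ones. At a matched number of peaks the short end differed too: the lower quartile for genes with 1 peak was 243 bases in heat-only genes, against 587 bases in genes in both lists.

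**Figure D2:**
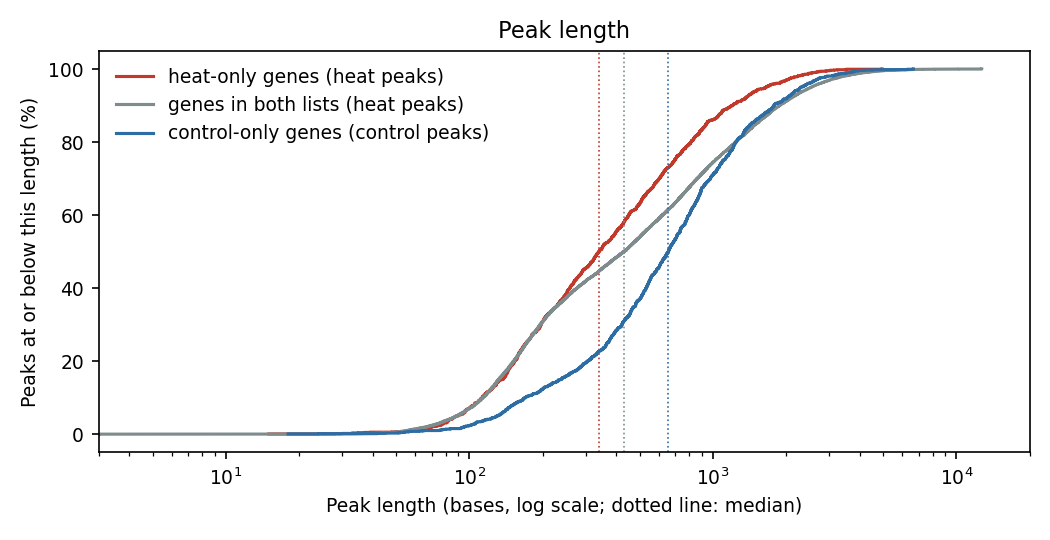
Cumulative share of peaks (percent) by peak length in bases, on a log axis, for heat-only genes, genes in both lists (heat peaks) and control-only genes. The curves of the heat-only genes and the genes in both lists start together, with 30.8% of the peaks of each under 200 bases, and part above that length.

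Genes with more peaks had shorter ones. In heat-only genes the median length was 474.5 bases where the gene had 1 peak, 259 with 2, 221 with 3 and 172 with 4 or more. The same order held in genes in both lists, with 981, 620.5, 387.5 and 206 bases, and in control-only genes, with 713, 538.5, 342 and 273 bases. At each peak number the heat-only median was the lowest of the 3 classes. The summed length of all peaks of a gene had a median of 522.5 bases in heat-only genes, 1414 bases over the heat peaks of genes in both lists and 771.5 bases in control-only genes.

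The heat-only peaks had lower folds and scores than the heat peaks of genes in both lists, while their scores were near those of control-only genes. The median fold was 24.6 (quartiles 17.5 and 35.3), against 32.6 (22.0 and 52.9) for heat peaks of genes in both lists. It was 37.4 (27.6 and 55.2) for control-only peaks and 44.2 (27.9 and 81.9) for control peaks of genes in both lists. Folds of the same genes were thus lower in the heat list. The part of this difference in the gap between heat-only and control-only peaks was not tested. The median score (the p-value of the caller on the minus log10 scale, multiplied by 10) was 108 in heat-only genes, against 221 in genes in both lists and 117 in control-only genes. The listed false discovery rate was 100% for 1133 peaks of heat-only genes (77.7%), against 7097 peaks of genes in both lists (50.6%) and 965 peaks of control-only genes (74.5%). By quartile of score over the whole heat list, 43.4% of the heat-only peaks fell in the lowest quartile, 31.5% in the second, 19.3% in the third and 5.89% in the highest. Length went with score: the heat-only median was 274, 356, 402 and 730 bases from the lowest to the highest quartile, against 207, 265, 487 and 950 bases in genes in both lists. In the lower quartiles the heat-only peaks were thus the longer ones, and in the upper quartiles the shorter ones.

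Many heat-only genes lay near the threshold of the lists, a score of 50. The best score of a gene was under 100 in 451 heat-only genes (41.7%, 38.7% to 44.7%), against 714 genes in both lists (11.8%). The median best score was 120 in heat-only genes, against 473 in genes in both lists. At least 1000 was reached by 38 heat-only genes, against 1935 genes in both lists. Just inside the threshold lay MBD5, PDSS2, WWP1 and LPO, each with a score of 50.1, and EMC10 with 50.2. Just outside the choice lay genes whose best control score was near the threshold: LTBP4 had 531 in heated cells and just reached 50 in control cells, SAMD9L had 75.6 in heated and 50.3 in control cells, SCN8A 463 in heated and 50.3 in control cells, MYH7B 153 in heated and 50.3 in control cells, and C14orf166 50.7 in heated and 50.4 in control cells. A gene such as LTBP4 or SCN8A had a strong heat peak and missed the choice by a single weak control peak.

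The heat-only genes with the most peaks carried them mostly as rows of short stretches along the gene, with a long peak in some. DPP9, a cytosolic dipeptidyl peptidase, had 9 peaks of 80 to 1425 bases, with a summed length of 2939 bases. Its best peak lay at chr19:4714093-4714349 (hg19) at 144-fold. PFKP, the platelet isoform of phosphofructokinase in glycolysis, also had 9, with a summed length of 1760 bases and 31.4-fold at its best peak. ITGB4, the integrin beta chain of hemidesmosomes, had 8 peaks, 7 of them between 149 and 205 bases long and the last 619 bases long with the gene's best score of 1306. UBAP2L, a stress granule protein, had 7. WASF2, an activator of actin branching, ITPR3, a calcium channel of the endoplasmic reticulum, HSPG2, the basement membrane proteoglycan perlecan, and FAM120A, an RNA-binding protein, had 6 each. In HSPG2 all 6 peaks were between 152 and 197 bases long, at 15.9- to 53.7-fold. Genes with 5 peaks included RNF216, a ubiquitin ligase, WARS, the cytosolic tryptophanyl-tRNA synthetase, and SH3BP1, a GTPase-activating protein. NOMO1, BIN1, a membrane-curving protein, and INTS1, a subunit of the Integrator complex, had 5 as well. Every peak of RNF216, WARS, SH3BP1 and BIN1 had a listed false discovery rate of 100%. The other genes named here each had a peak below that, beside peaks at 100%.

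**Figure D3:**
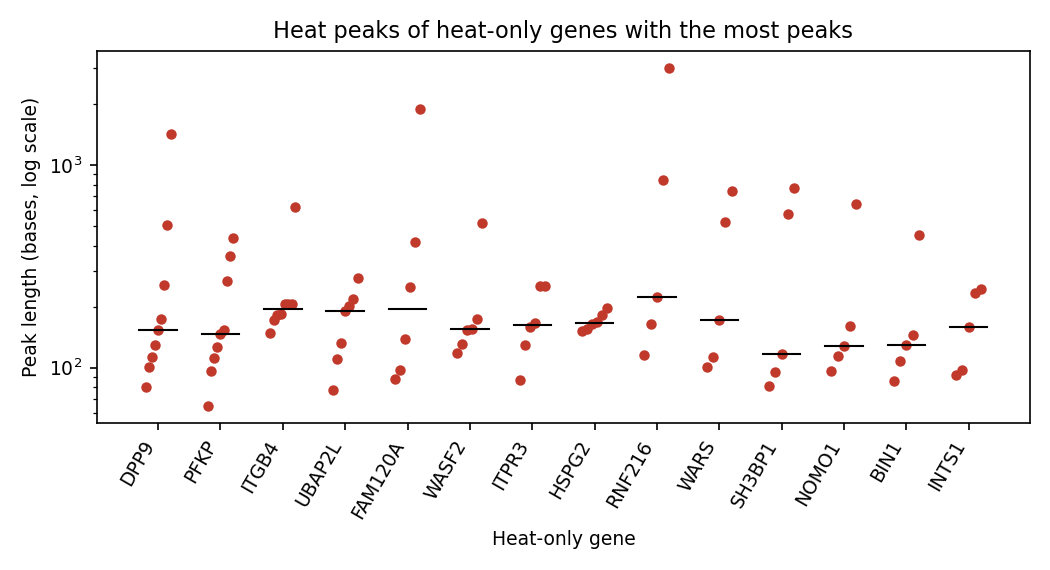
Heat-only genes with the most heat peaks, 14 of the 15 named by that rule. Each point is 1 heat peak, placed by its length in bases on a log axis, and the bar is the median of the gene. DPP9 and PFKP lead with 9 peaks each, and the 6 peaks of HSPG2 lie together between 152 and 197 bases.

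Of the 10 genes with the longest peaks, 9 had 1 to 3 peaks, and RNF216, with 5, had a peak of 3015 bases. JRK, a DNA-binding protein gene on chromosome 8, had the longest, with 4953 bases and a score of 53.9, close to the threshold. ADAM19, a membrane metalloprotease, had a peak of 3529 bases beside peaks of 109 and 221 bases. ZNF395, a transcription factor gene, had 1 peak of 3246 bases at 101-fold and a score of 1211, and was thus long and strong. Peaks of 3515 bases in FAM101B, 3140 bases in MGLL, which encodes monoglyceride lipase, and 3023 bases in CENPO, a kinetochore protein gene, each stood beside a single short one of 105, 141 and 170 bases in that order.

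Gene functions were read from the gene ontology (GO) columns of the lists, in 48 groups of terms for cell compartments and processes. For each group the share of heat-only genes among all its genes with a peak was set beside the 13.2% of all genes. The share was above 13.2% in 35 of the 48 groups, and its interval lay wholly above in 13 and wholly below in 1. Heat-only genes outnumbered control-only genes in 40 groups, were fewer in 6 and equal in number in 2. The groups share genes, and the intervals cover counting alone. The shares are a description of where the heat-only genes fell, with no test.

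**Figure D4:**
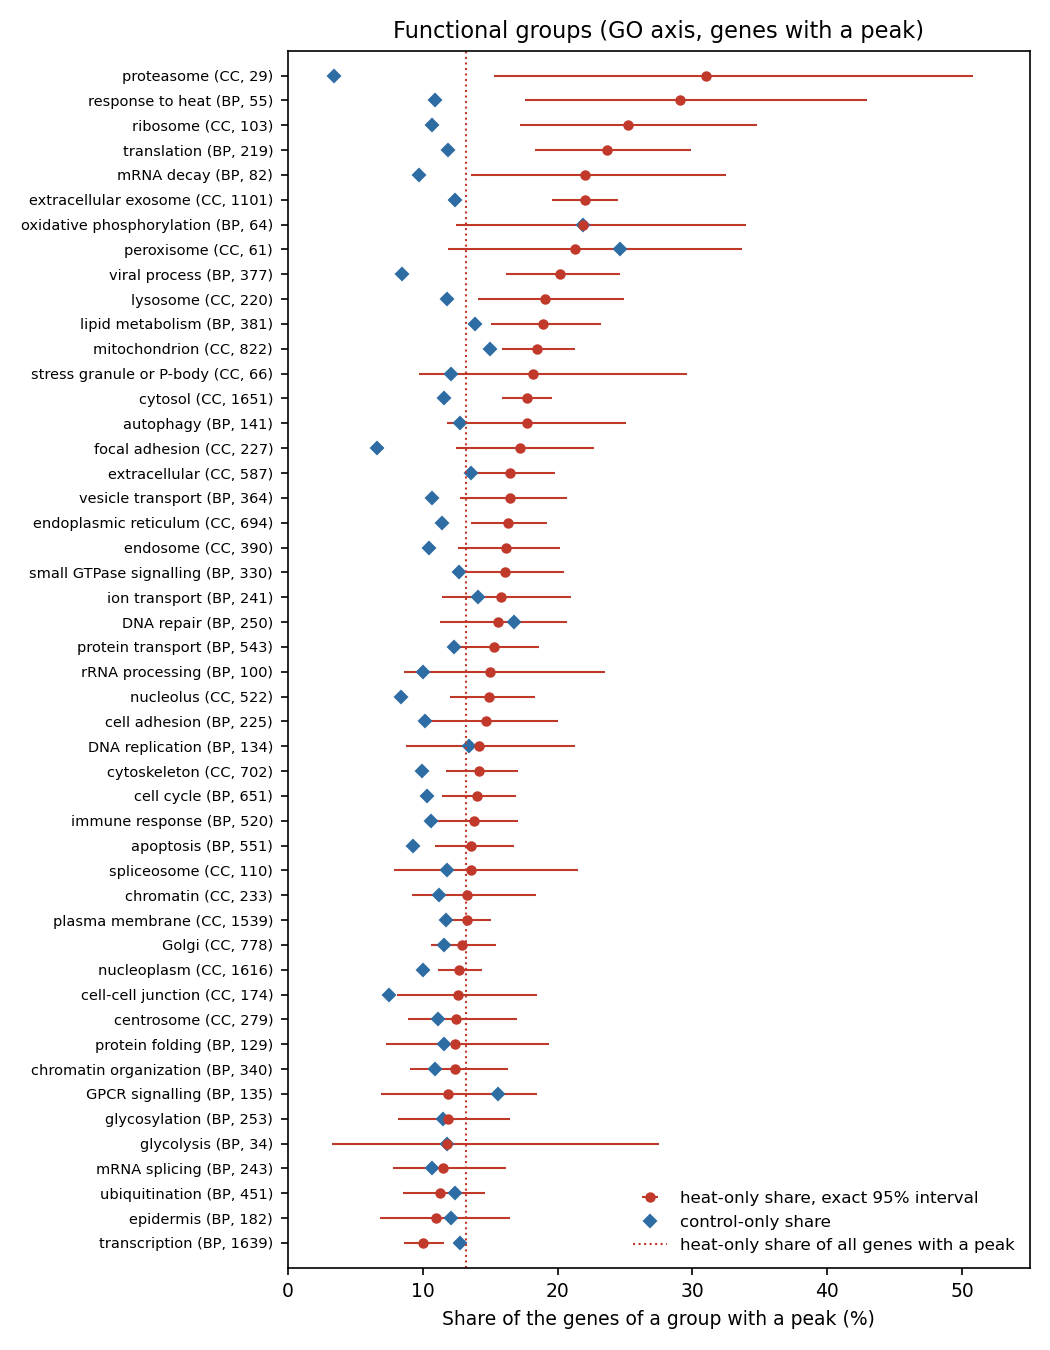
Heat-only share of the genes with a peak (percent, with exact 95% intervals) in functional groups, beside the control-only share and the heat-only share of all genes, 13.2%. Proteasome (31.0%) and response to heat (29.1%) lie highest and transcription (10.0%) lies below the line.

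Genes of the response to heat stood among the highest shares, with 16 heat only and 6 control only of 55 (29.1%, 17.6% to 42.9%). HSPA6 had a single peak with a score of 3100, the value at which scores in the lists level off. HSF1, the master regulator of the heat shock response, had a peak of 287 bases at 39.2-fold. DNAJC7, a co-chaperone of HSP70 and HSP90, had a best peak at 138-fold. AKT1S1, an inhibitor of mTORC1, had a peak of 2369 bases at 97.0-fold. Of the other 12 members, RBBP7, MICB, DNAJA4, RAE1, HSP90AA1 and NUP188 had scores of 174 to 635. The remaining 6 lay between 50.9 and 79.1, near the threshold, among them the co-chaperones BAG2 and FKBP4 and the RNA helicase DHX9. Peaks were also limited to folds above the pooled median of 36.5. Then 7 of 38 genes of this group were heat only (18.4%, with 12.9% of all genes). Another 12 were control only (31.6%, with 31.8% of all genes). The GO group of protein folding had 16 heat-only and 15 control-only genes of 129 (12.4%, with 13.2% of all genes). By the description column, read after the values were seen, 15 of 61 chaperone or heat shock genes were heat only (24.6%) and 5 control only. They included HSPH1, an HSP110 chaperone, with 17.7-fold, and AHSA1, an activator of HSP90, with 13.7-fold.

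The proteasome degrades proteins tagged with ubiquitin. Of 29 genes annotated to it, 9 were heat only and 1 control only (31.0%, 15.3% to 50.8%). They were ZFAND2A (626), known as a heat- and arsenite-inducible proteasome partner, PSMD8 (347), PSMD12 (189), PSMC2 (183), UBQLN1 (174), PSME4 (156), PSMA4 (116), UCHL5 (88.4) and PSMD4 (82.4), given by best score. PSMD8, PSMD12 and PSMD4 are subunits of the regulatory particle, PSMC2 is one of its ATPases and PSMA4 is a subunit of the core ring. UBQLN1 is a ubiquitin shuttle and UCHL5 a deubiquitinase. With a score above 100 in both lists the counts were again 9 heat only and 1 control only. These counts drew level under other limits. With the top 7183 peaks of each list, 6 of 19 genes were heat only (31.6%, with 14.7% of all genes) and 6 control only. With a listed false discovery rate under 100%, 7 of 20 were heat only (35.0%, with 13.9% of all genes) and 6 control only. With the fold limit, 5 of 15 were heat only (33.3%, with 12.9% of all genes) and 6 control only. The heat-only share was thus not lower under these limits. With the top 7183 peaks, the control-only share of the proteasome rose from 3.45% to 31.6%. The control-only share of all genes rose too, from 13.5% to 20.9%. It was 21.3% with the false discovery rate limit and 31.8% with the fold limit. The heat-only share of the proteasome was 25.9% (8.12% of all genes) with a heat score above 100 and any control row excluding a gene.

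Ribosome genes and translation genes also had high shares. For the ribosome, 26 of 103 genes were heat only and 11 control only (25.2%, 17.2% to 34.8%). For translation, 52 of 219 were heat only and 26 control only (23.7%, 18.3% to 29.9%). The groups overlap: 22 heat-only genes were in both, which is 84.6% of the ribosome's and 42.3% of translation's. Of 17 cytosolic ribosomal protein genes with a peak, 2 were control only and 8 heat only (47.1%, with 13.2% of all genes). The 8 were RPL26, RPL14, RPS6, RPS26, RPS29, RPL17, RPL5 and RPL37. Their folds were low, at 6.40 in RPS6, 8.49 in RPL5 and 37.0 in RPS29, the highest of the 8. The best-scored of the mitochondrial ribosome were MRPS18B, with 27.9-fold, and MRPS6, with 16.5-fold. Leaving out the 8 and the other ribosomal protein genes, 18 of 91 ribosome genes (19.8%) and 44 of 206 translation genes (21.4%) were heat only. The heat-only shares of both whole groups were lower with limits on the lists, and each was under that of all genes with some of them. With the top 7183 peaks of each list, 17 of 143 translation genes (11.9%) were heat only, beside 14.7% of all genes. Control only were 25 (17.5%), beside 20.9% of all genes. With a listed false discovery rate under 100%, 16 of 144 (11.1%) were heat only, beside 13.9% of all genes. Control only were 26 (18.1%), beside 21.3% of all genes. With the fold limit, 7 of 61 ribosome genes (11.5%) were heat only, beside 12.9% of all genes. Control only were 15 (24.6%), beside 31.8% of all genes. The ribosome share stayed above all genes with the top 7183 peaks (20.0%, beside 14.7%) and the false discovery rate limit (19.7%, beside 13.9%). The translation share stayed above all genes with the fold limit (15.6%, beside 12.9%). The control-only shares of both groups were under those of all genes with each of these limits.

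Descriptions naming a tRNA synthetase, the kind of enzyme that charges tRNA with amino acids, gave 6 heat only of 25 genes and 4 control only. The heat-only share of 24.0% had an interval of 9.36% to 45.1%, which includes the 13.2% of all genes. The control-only share was 16.0%, with 13.5% of all genes. AIMP2, among the 6, is a scaffold protein of the synthetase complex and no such enzyme. SARS, the seryl-tRNA synthetase, had the best score at 725, and MARS, the methionyl enzyme, had 1 peak of 1694 bases. WARS had 5 peaks with a summed length of 1649 bases. Genes of mRNA decay were heat only in 18 of 82 cases and control only in 8 (22.0%, 13.6% to 32.5%). Without the ribosomal protein genes, which share terms for nonsense-mediated decay, 10 of 72 remained (13.9%), close to the 13.2% of all genes. Among these 10 were PABPC1, the cytoplasmic poly(A)-binding protein, with a score of 1250 at 10.0-fold, PATL1, a decapping activator, with 2 peaks, DIS3L2, an exoribonuclease, with 3, and PARN, a poly(A) ribonuclease, with a peak of 81 bases.

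Broad compartments and other process groups varied in the balance of heat-only and control-only genes. In the extracellular exosome group 242 of 1101 genes were heat only and 137 control only (22.0%, 19.6% to 24.5%), and in the cytosol 292 of 1651 were heat only and 192 control only (17.7%, 15.9% to 19.6%). The mitochondrion had 152 heat-only and 123 control-only genes of 822 (18.5%, 15.9% to 21.3%). Oxidative phosphorylation had 14 heat-only and 14 control-only genes of 64, with the heat-only ones led by SDHA, the flavoprotein of succinate dehydrogenase, at 55.9-fold. Each of the 2 single-list classes thus held 21.9% of that group. The lysosome had 42 heat-only and 26 control-only genes of 220 (19.1%, 14.1% to 24.9%). These included DNASE2, an acid nuclease, with a peak of 1143 bases at 107-fold and a score of 2883, CTSZ, a cathepsin, with a score of 1895, and LAMP1, a lysosome membrane glycoprotein, at 7.45-fold. The viral process terms, which hold all 8 heat-only ribosomal protein genes, had 76 heat-only and 32 control-only genes of 377 (20.2%, 16.2% to 24.6%), and 68 of 367 (18.5%) without the ribosomal protein genes.

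Focal adhesions tie the actin skeleton of a cell to its matrix. Of 227 focal adhesion genes, 39 were heat only and 15 control only (17.2%, 12.5% to 22.7%), an interval that includes 13.2%. Of those in a single list, 72.2% were heat only (58.4% to 83.5%), against 49.4% over all genes. The interval of this second share lay wholly above 50% in 14 of the 48 groups, so it is not particular to focal adhesion. The 39 heat-only genes included JUP, the junction protein plakoglobin, with 4 peaks, and TLN1, which links integrins to actin, at 23.4-fold. ILK, an integrin-linked kinase, stood at 16.2-fold, and ITGB1, an integrin beta chain, had a peak of 221 bases. The 14-3-3 proteins YWHAQ, YWHAE and YWHAZ were also among the 39. By description, 6 of 15 keratin genes were heat only and 1 control only. KRT75 had a peak of 292 bases at 286-fold, KRT78 one of 215 bases at 124-fold, and KRT15 had 2 peaks with a summed length of 2818 bases. KRT5, KRT17 and KRT34 were the others. Histone cluster genes were heat only in 5 of 8 cases (62.5%, 24.5% to 91.5%, with 13.2% of all genes) and control only in 2. The 5 were HIST3H2A, HIST1H1C, HIST1H1D, HIST1H2BH and HIST1H1B, at 8.15- to 41.4-fold. Keratins, cytosolic ribosomal proteins and histones have close copies, so which copy a peak belongs to is uncertain.

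Transcription genes were the group with a low share. Of 1639 genes, 164 were heat only and 209 control only (10.0%, 8.60% to 11.6%). The description column gave the sharpest case: of 497 zinc finger genes, most of which encode DNA-binding proteins, 24 were heat only (4.83%, 3.12% to 7.10%) and 94 control only (18.9%, 15.6% to 22.6%). ZNF395, with 101-fold, ZNF266, with 104-fold, and ZNF524, with 110-fold, led the 24. Solute carriers, which are membrane transporters, had 10 heat-only and 24 control-only genes of 136 (7.35% and 17.6%). SLC31A2, a copper transporter, had the best score of these 10, at 554. The ubiquitination group, unlike the proteasome, had 51 heat-only and 56 control-only genes of 451 (11.3%). Epidermis terms, whose pattern also took in epidermal growth factor terms, had 20 heat-only and 22 control-only genes of 182. Their heat-only share was 11.0% (6.84% to 16.5%), an interval that includes the 13.2% of all genes.

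The absence from the control list was looked at in its own surroundings. Of the 1459 heat-only peaks, 9 overlapped a control peak that was listed under another symbol, such as CCDC103 under FAM187A, CENPP under IPPK and UCN under TRIM54. By current symbols, 5 heat-only genes had a control row under another spelling: C15orf37, C19orf55 (PROSER3), GLTPD1 (CPTP), KIAA0913 (ZSWIM8) and MROH1 (HEATR7A). The control list also leaves out peak numbers. Between the control peaks on either side of a heat-only peak, a median of 9 numbers was unlisted, and 1450 of the 1459 peaks had a control peak on both sides. For 11 peaks in 10 genes no number was missing there. If the numbers run in order along the genome, which was not tested, no numbered control peak was left out between the flanking ones. Control signal that was given no number is not covered by this. The 10 genes were IL18BP, PRRT2, RPS6, PSMG4, NPIPB7, CDK19, LAMTOR4, SSBP4, NPIPB8 and TBL3. For the rest, whether an unlisted control peak lay at the gene was not tested. Near-identical copies add doubt for NOMO1 (5 heat peaks) and NOMO3 (2 heat peaks), which were heat only, while NOMO2 was in both lists with 2 heat peaks and 1 control peak. GTF2IRD2 was heat only and its copy GTF2IRD2B was in both lists. SMN2 and PGAM4 have copies as well.

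The number of heat-only genes depended on where the lists were limited. With a score above 100 in both lists it was 946, of which 631 were among the 1082. With the top 7183 peaks of each list it was 828, of which 285 were among the 1082. A fold above 36.5 gave 797, of which 306 were among them, and a listed false discovery rate under 100% gave 795, of which 287 were. The count thus moved less than the genes behind it. In each of these settings the heat-only peaks had the shortest median of the 3 classes, at 380, 505.5, 446 and 502.5 bases in that order, against 563, 767, 662 and 761.5 bases for heat peaks of genes in both lists.

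**Figure D5:**
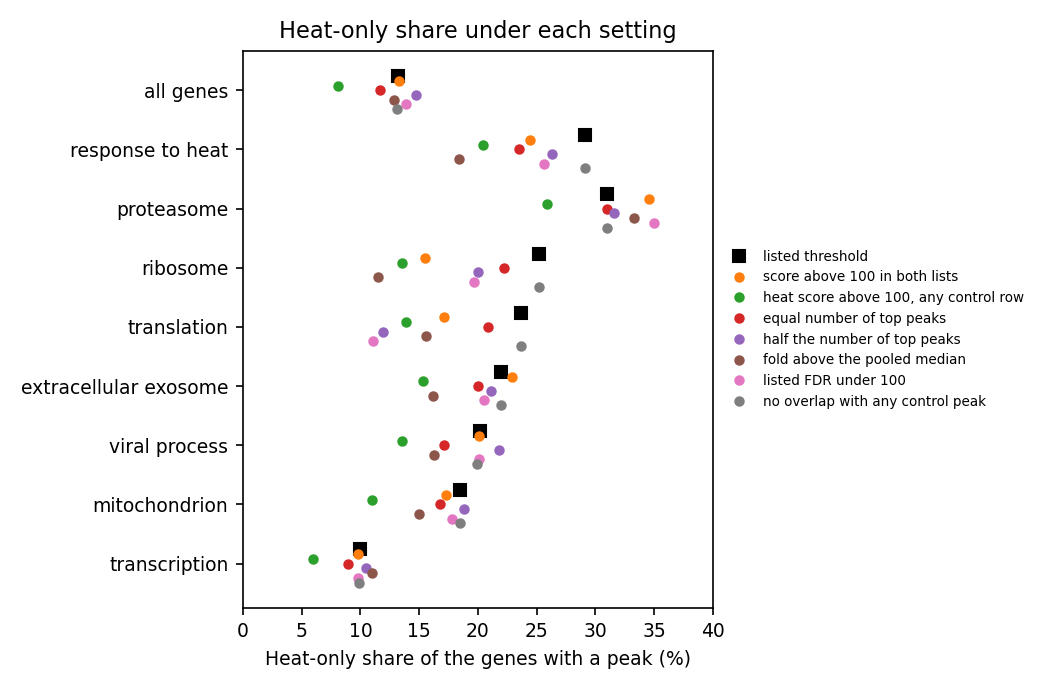
Heat-only share (percent, horizontal axis) of the genes with a peak, for all genes and 8 functional groups (rows), under the listed threshold (black squares) and 7 other ways of limiting or matching the lists (coloured points). The share for response to heat moves between 18.4% and 29.1% and that for translation between 11.1% and 23.7%, while transcription lies below all genes in each setting.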

How the data were processed

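The files are 2 peak lists, 1 for heated and 1 for control CaSki cells. Samples were grouped by the treatment label. The treatment protocol in the labels gives the heating for all 4 samples, controls included, so the treatment label alone sets the controls apart. The submitters' processing notes name cutadapt 1.9.3, STAR and the build hg19. Each list came from 1 immunoprecipitated library. Per the file headers, the deposited values are a score (a p-value on the minus log10 scale, multiplied by 10), a fold (a ratio of signal to background) and a false discovery rate in percent. The deposited peak length is in bases. Starts were raised by 1, so coordinates are 1-based. Read counts and library depth were not used here, and their effect on the precision of the peaks is unknown.

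A gene was heat only when its symbol had a heat row and no control row. The members, lists and groups were chosen with earlier results of these data known, and the 19 description classes and the terms of at least 40 genes were chosen after the values were seen. Genes named in the text were the 15 with the most peaks (1 of them is not reported here), the 10 with the longest peak, up to 4 per group by score, 5 on each side of the threshold, up to 5 with a heat shock element, and others chosen after their values were seen. Shares carry exact Clopper-Pearson 95% intervals, and no test was made between conditions. Counts and motif searches were tested on simulated data. Promoters came from RefSeq (GRCh38.p14). Alternatives limited the lists by score, fold, false discovery rate or number of peaks, or matched genes in other ways. Tables were handled with pandas 2.3.3.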

Additional observations from a re-analysis of the deposited data

How the results depend on the processing

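The count of 1082 heat-only genes was 946 with a score above 100 in both lists, 950 with equal numbers of top peaks, 828 with the top 7183 peaks of each list, 797 with a fold above 36.5 and 795 with a listed false discovery rate under 100%. It was 631 when a heat score above 100 was asked for and any control row still excluded a gene. It was 1073 without genes whose peaks overlap a control peak, 1082 by gene identifier and 1077 by current symbols, which was added after the data were seen. The share of heat-only genes with 1 peak was 77.3%, and it was 82.4% with a heat score above 100, 83.5% with the top 7183 peaks, 83.4% with the fold limit and 83.8% with the false discovery rate limit. The median length of 340 bases became 380 with a score above 100 in both lists, 416.5 with a heat score above 100, 505.5 with the top 7183 peaks, 446 with the fold limit and 502.5 with the false discovery rate limit. It was 462.5 for the longest peak of each gene and 474.5 for genes with 1 heat peak. With 1 mismatch allowed, the heat shock element stood in 4.84% of the matched heat-only genes, beside 5.93% in genes in both lists, 4.45% in control-only genes and 7.60% in all genes of the table. The comparison is void, as for the exact element. The number of functional groups above the share of all genes, 35 of 48, ranged from 33 to 38. For single groups, the heat-only share of the genes listed in 1 list alone was compared, and 141 of 384 values moved beyond their interval. Over all genes this share itself was 49.4%. It was 25.7% when a heat score above 100 was asked for and any control row still excluded a gene. No paired analysis was possible because each condition had 1 immunoprecipitated library. For the same reason no library could be left out. The cause of these changes was not tested, and neither was the part of the fewer peaks that each limit leaves. The lists give no read depth, so the part of depth in the weak peaks near the score of 50 was not tested.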

Other observations

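Terms with at least 40 genes with a peak were also ranked by the share of heat-only genes, 107 for compartments, 162 for processes and 58 for pathways. These ranks were looked at after the data were seen, carry no test, and take the extremes of many terms. Among compartments the melanosome term, which holds many proteins of endosomes and the cytosol, led with 19 heat-only and 6 control-only genes of 52 (36.5%, 23.6% to 51.0%), among them MMP14, RAB5A, YWHAE and HSP90AA1. Basement membrane had 10 heat-only and 0 control-only genes of 41 (24.4%, 12.4% to 40.3%), among them ITGB4, COL7A1, the anchoring fibril collagen, TGFBI, TIMP1, NPNT and LAMB1, a laminin chain. Glycerophospholipid biosynthesis had 13 heat-only and 4 control-only genes of 45 (28.9%, 16.4% to 44.3%). The 13 included DGAT1, which makes triglycerides, and PEMT, which makes phosphatidylcholine. Among pathways, Epstein-Barr virus infection had 22 heat-only and 4 control-only genes of 72 (30.6%), and Viral carcinogenesis 21 heat-only and 6 control-only of 72 (29.2%), with YWHAQ, IRF3, an interferon regulatory factor, and CDKN2A, the p16 tumour suppressor, among the strongest. Apoptosis had 15 heat-only and 4 control-only genes of 68 (22.1%), with CASP2 and PARP1.

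At the other end, centriole had 3 heat-only and 9 control-only genes of 60 (5.00%), and apical plasma membrane 6 heat-only and 14 control-only of 101 (5.94%). Ubiquitination within protein catabolism had 1 heat-only gene, WWP1, and 7 control-only genes of 64 (1.56%). The Wnt signaling process had 4 heat-only and 7 control-only genes of 76 (5.26%), and the TGF-beta pathway 2 heat-only and 3 control-only of 45 (4.44%). By the transcript given for a gene, the heat-only share was 18.2% of 940 genes with an Ensembl transcript (15.8% to 20.8%), 19.7% of 249 with a UCSC transcript (14.9% to 25.2%) and 12.3% of 7031 with a RefSeq mRNA. By chromosome it was highest on 17 (17.2%) and 16 (16.7%) and lowest on 21 (8.99%) and 5 (9.04%).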
